A study of Mus musculus with 14 samples.

Results

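The genes described here are 35 enzymes and regulators of fatty acid and cholesterol synthesis, measured in mouse dentate gyrus cells that the labels call adult hippocampal precursors and that were sorted on a dye for reactive oxygen species (ROS). They were chosen by name, as the rows of the expression table whose Ensembl identifier maps to one of 35 listed mouse symbols, and all 35 were found among its 15119 genes. By role, 13 belong to the fatty acid branch, 17 to the sterol branch and 5 to the regulators that both branches share. The study compared 3 classes of cells from the dentate gyrus of the mouse strain B6.Cg-Tg(Nes-EGFP)1Yamm, in which enhanced green fluorescent protein (GFP) is driven by regulatory elements of the Nestin gene. All 3 classes were sorted as GFP-positive and differ in the signal of dihydroethidium, a dye that becomes fluorescent when oxidised by superoxide and other oxidants. They are written ROS+ (5 libraries), ROS++ (5 libraries) and ROS+++ (4 libraries), from the lowest to the highest dye signal named in the labels. No treatment was given, and every class carries the transgene. Beyond "adult" the labels give no age, and they give no sex or animal and do not say whether animals were pooled, so each p-value reflects the spread among these libraries alone, and that spread could be technical. Replicate numbers follow the order of deposit within a class and tie no libraries together across classes. A reporter gene marks every cell in which its promoter fragment is active, and the marker levels below include those of other cell types.

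Fatty acids are built in the cytosol from citrate. ATP citrate lyase cleaves citrate to acetyl-CoA, acetyl-CoA carboxylase makes malonyl-CoA from it, and fatty acid synthase assembles a saturated chain that desaturases and elongases then modify. Cholesterol starts from the same acetyl-CoA and runs through mevalonate, farnesyl diphosphate, squalene and lanosterol to a series of demethylations and double bond rearrangements. Both branches are controlled by the sterol regulatory element-binding proteins (SREBPs), transcription factors that SCAP escorts from the endoplasmic reticulum when sterols are low and that INSIG proteins hold back when sterols are high. Neural stem cells are known to make fatty acids as they proliferate, and brain cells make their own cholesterol because lipoproteins of the blood do not enter the brain in quantity.

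Over the table's genes, ROS+ libraries had between 20832009 and 25313902 reads, ROS++ libraries between 18325361 and 23454022 and ROS+++ libraries between 12704227 and 20998589. Levels are given as CPM, a gene's reads scaled to the total of its library. A change is the difference of 2 class means of log2(CPM + 1), given with a standard error, and this scale understates the change of genes near 0. A gene was called at a limma adjusted p under 0.05 over all 15102 genes tested. Markers of several cell types moved with the classes. The summed level of 15 mural cell (pericyte and smooth muscle) markers had a median of 404, 10376 and 56967 CPM in ROS+, ROS++ and ROS+++, and 15 microglia and macrophage markers summed to 7.70, 1779 and 2046 CPM. Neuroblast markers (14) went the other way, from 17182 to 2081 and 101 CPM, and 14 cell cycle genes stood at 685, 1677 and 267 CPM. The 12 markers of radial glia-like stem cells summed to 1182, 4996 and 5590 CPM. Between ROS+++ and ROS++, 5 of these 12 were lower and 2 higher (median -0.70), although the sum was larger. The 8 oligodendrocyte precursor markers summed to 3009, 2568 and 191 CPM, and 13 astrocyte markers to 1565.5, 7555 and 6430 CPM. Endothelial markers (10) stood at 117, 466 and 1458 CPM and 12 immediate early genes at 541, 2433 and 10499 CPM. Leptomeningeal fibroblast markers (8) summed to 1243, 1213 and 818 CPM, though 5 were called higher and 1 lower in ROS+++ than in ROS+. In these lists no marker was at 0 in every library of a class. In bulk RNA, fewer cells of a type and less RNA per cell cannot be told apart, and the part of these marker shifts in the results below was not tested.

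Most of these enzymes were at their lowest in ROS+++. Between ROS+++ and ROS+, 17 of the 35 genes fell and 5 rose, while 40.0% of all genes tested were called lower and 19.2% higher. Between ROS+++ and ROS++, 14 fell and 0 rose in the limma test (0 also at an unadjusted p under 0.05, and 0 in limma-voom), against 29.2% lower and 9.89% higher among all genes. With TMM, relative log expression and upper-quartile factors, other ways to scale libraries, 10 fell in that comparison and 2, 3 and 2 rose. Among all genes, those factors called 18.8%, 17.1% and 20.1% lower and 16.3%, 18.7% and 14.8% higher. Fewer genes separated ROS++ from ROS+, with 5 genes higher and 2 lower in ROS++ (16.4% and 13.2% of all genes). Tested for any difference among the classes (limma F-test), 20 of the 35 passed, or 57.1%, near the 61.5% of all genes, so being called at all did not set these genes apart. The libraries of ROS+++ and ROS+ did not overlap in 13 of the 35 (50.0% of all genes), those of ROS+++ and ROS++ in 10 (27.0%), and those of ROS++ and ROS+ in 6 (23.0%).

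**Figure D1:**
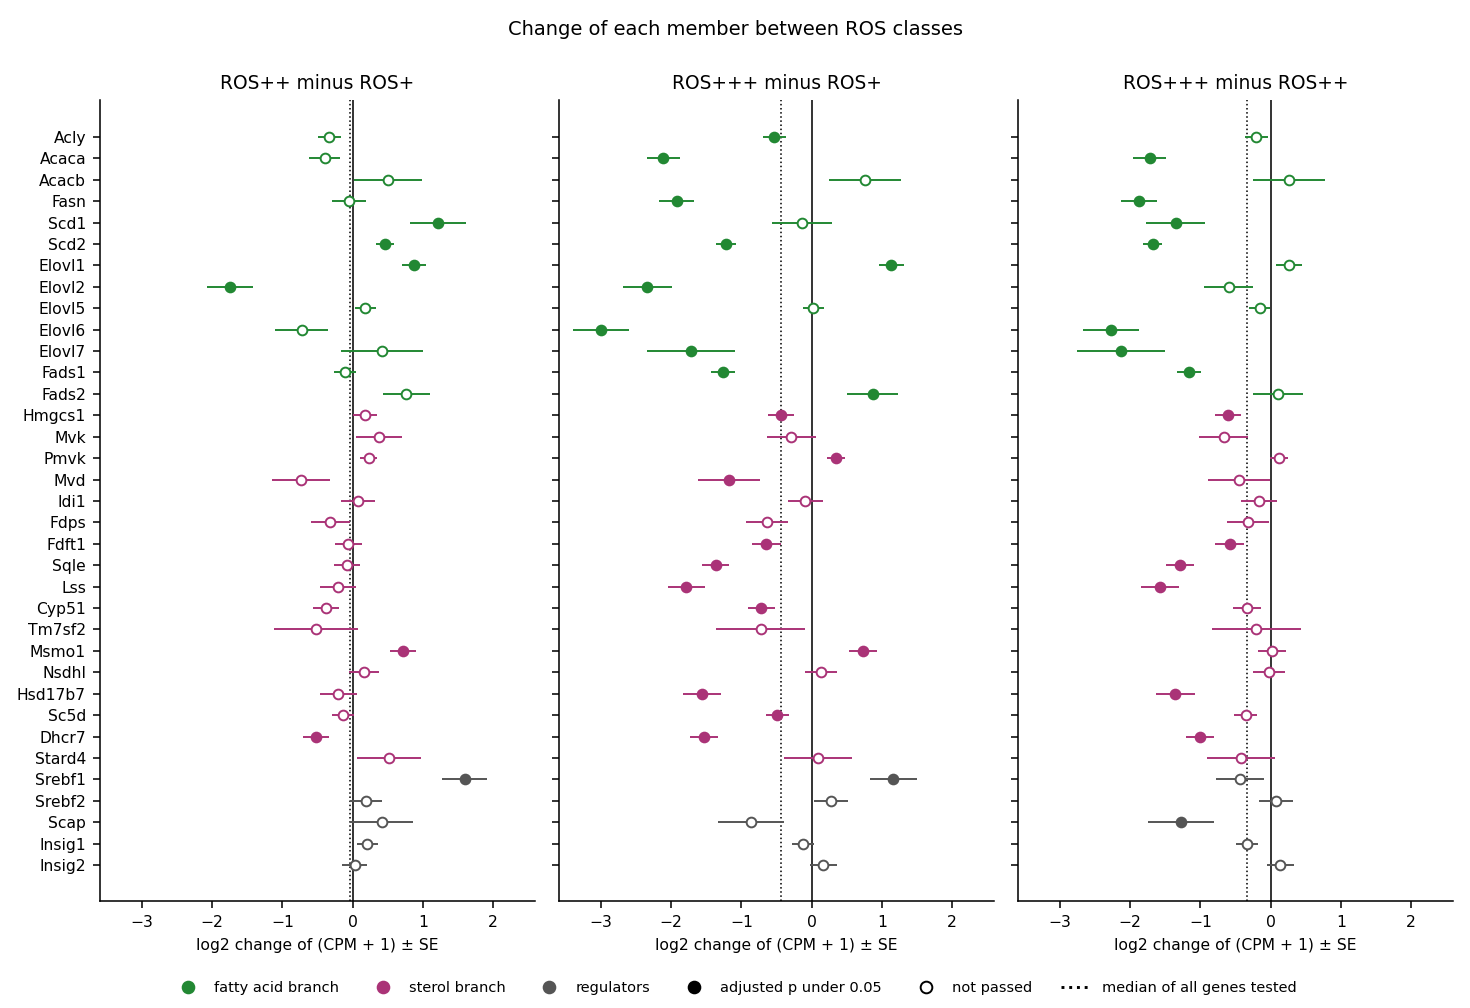
Change of each of the 35 genes between classes (x axis, log2 change of CPM + 1 with its standard error; y axis, genes by role), filled where the limma adjusted p was under 0.05; the dotted line is the median of all genes tested. In ROS+++ minus ROS+ the filled points lie between -3.00 (Elovl6) and 1.17 (Srebf1), and 17 of the 22 are below 0.

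The fatty acid branch had the lower median change of the 2 in ROS+++. Of its 13 genes, 8 fell and 2 rose between ROS+++ and ROS+, with a median change of -1.22 beside -0.44 over all genes tested. Against ROS++, 7 fell and 0 rose (limma, none higher at an unadjusted p under 0.05), with a median of -1.16 (all genes -0.34). Between ROS++ and ROS+, 3 rose and 1 fell, with a median of 0.18 (all genes -0.03). Of all genes tested, 40.0% were called lower and 19.2% higher in ROS+++ than in ROS+. Against ROS++ those shares were 29.2% and 9.89%, and between ROS++ and ROS+ 13.2% were lower and 16.4% higher. The difference between the 2 branches was not tested.

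Enzymes that commit acetyl-CoA to fat were low in ROS+++. Acaca, the cytosolic acetyl-CoA carboxylase (ENSMUSG00000020532, chromosome 11, 84129672 to 84401651), held 37.4, 47.9, 49.99, 43.4 and 40.5 CPM in the ROS+ libraries, 30.8, 32.9, 35.3, 30.2 and 35.7 in those of ROS++ and 13.1, 12.5, 7.10 and 6.30 in those of ROS+++. Every ROS+++ library lay below every library of both other classes, and every ROS++ library lay below every ROS+ library. The gene fell by 2.11 ± 0.23 (adjusted p = 5.5e-07) from ROS+ to ROS+++, with a change of -1.72 ± 0.23 (adjusted p = 2.0e-05) against ROS++, while ROS++ minus ROS+ stood at -0.40 ± 0.22 (adjusted p = 0.20) and did not pass. Its level is uncertain in one respect, since 52.6% of the 50-base stretches of its transcripts also occur in the annotated gene Gm5182. Acacb, the mitochondrial carboxylase whose malonyl-CoA restrains fatty acid oxidation, was far lower per length (0.147 CPM per kb of exon in ROS+, against 2.57 for Acaca). Acacb averaged 1.41 ± 0.499, 3.40 ± 3.13 and 3.18 ± 1.25 CPM, and no difference passed. Acly, the lyase that supplies acetyl-CoA, averaged 205 ± 20.9, 165 ± 30.6 and 144 ± 31.99 CPM and fell by 0.53 ± 0.17 (adjusted p = 0.012) from ROS+ to ROS+++. Without ROS+++ replicate 4 that call ended (-0.36, adjusted p = 0.058), as it did with each of 3 other scalings.

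Fatty acid synthase was lower in ROS+++ than in both other classes. Fasn, its gene (ENSMUSG00000025153, chromosome 11, 120805846 to 120824547), held 66.6, 70.996, 101, 93.1 and 95.4 CPM in the ROS+ libraries, 67.6, 72.98, 125, 72.01 and 80.9 in those of ROS++ and 22.1, 15.3, 16.2 and 38.8 in those of ROS+++. ROS+ and ROS++ overlapped, with ROS++ replicate 3 above every ROS+ library, and the 4 ROS+++ libraries lay below all of them. Fasn fell by 1.92 ± 0.25 (adjusted p = 4.2e-06) from ROS+ to ROS+++, with a change of -1.87 ± 0.25 (adjusted p = 1.7e-05) against ROS++. The difference between ROS++ and ROS+ was -0.05 ± 0.24 (adjusted p = 0.90).

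Of the stearoyl-CoA desaturases, which place the first double bond in a saturated chain, Scd1 and Scd2 were highest in ROS++. Scd3, a paralog outside the 35 genes, was low and went the other way (3.28, 0.626 and 0.0989 CPM, -1.31 ± 0.33 in ROS++ minus ROS+, adjusted p = 0.0059). Scd2, the main form in brain (ENSMUSG00000025203, chromosome 19, 44293674 to 44306864), held 651, 642, 515, 597 and 542 CPM in the ROS+ libraries, 956, 786, 886, 741 and 695 in those of ROS++ and 280.0, 235, 189 and 323 in those of ROS+++. All ROS++ libraries lay above all ROS+ libraries, and all ROS+++ libraries lay below both. Scd2 rose by 0.46 ± 0.13 (adjusted p = 0.012) from ROS+ to ROS++ and fell by 1.68 ± 0.14 (adjusted p = 1.4e-07) from ROS++ to ROS+++, and it fell by 1.22 ± 0.14 (adjusted p = 7.1e-07) from ROS+ to ROS+++. It had the highest level per length of the branch in ROS+ and ROS++ (108 and 149 CPM per kb of exon), and in ROS+++ (47.0 CPM per kb) it was below Elovl5 (75.9) and Elovl1 (54.2). Scd1 stood at 2.29 CPM per kb in ROS+.

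Scd1, the form known from liver and fat (ENSMUSG00000037071, chromosome 19, 44394455 to 44407879), held 10.1, 18.2, 6.91, 11.9 and 8.77 CPM in the ROS+ libraries, 32.9, 35.1, 22.9, 21.8 and 20.4 in those of ROS++ and 8.69, 16.05, 2.71 and 19.4 in those of ROS+++. The 5 ROS++ libraries lay above every other library, and ROS+ and ROS+++ overlapped. Scd1 rose by 1.21 ± 0.40 (adjusted p = 0.028) from ROS+ to ROS++ and fell by 1.35 ± 0.42 (adjusted p = 0.017) from ROS++ to ROS+++, with -0.14 ± 0.42 (adjusted p = 0.80) between ROS+++ and ROS+. The rise lost its call without ROS+ replicate 1, 3 or 5 or ROS++ replicate 1 or 2 (1.08 to 1.20, adjusted p = 0.052 to 0.076). The fall lost it without ROS+++ replicate 3 (-0.85, adjusted p = 0.070) and with 3 other scalings. Markers of myelinating oligodendrocytes, cells rich in lipid synthesis, were also highest in ROS++ by the median of their summed level. That median was 2317, 9278 and 564 CPM in ROS+, ROS++ and ROS+++, but ROS++ (2092 to 11265 CPM) overlapped ROS+ (2080 to 5625 CPM). Of these 12 markers, 6 were called higher in ROS++ than in ROS+ and none lower. The part of these cells in the desaturase levels was not tested. Of the 50-base stretches of Scd1 and Scd2 transcripts, 4.66% and 4.01% also occur in other genes, including each other.

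**Figure D2:**
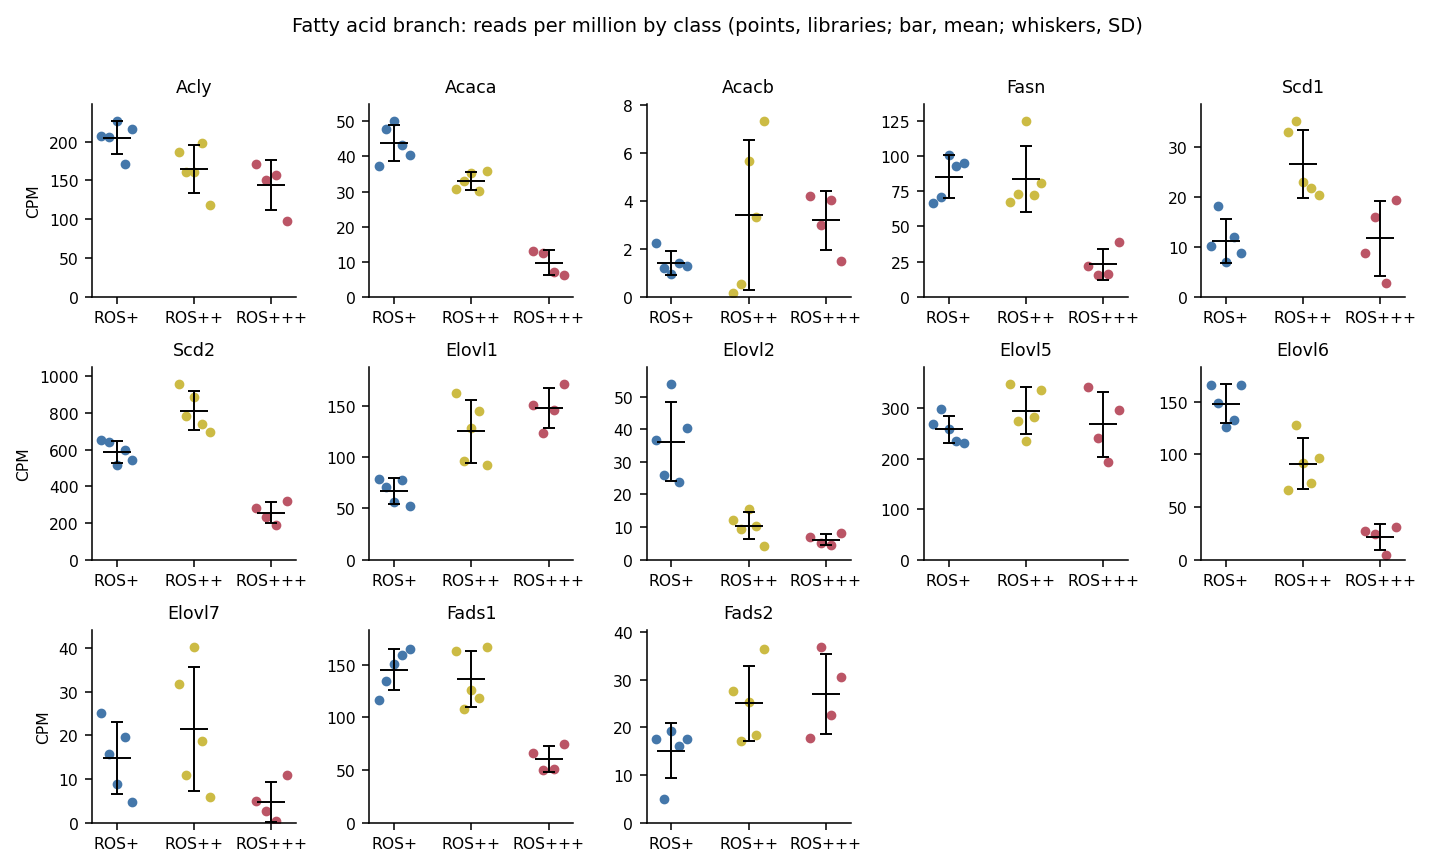
CPM (y axis, from 0) of the 13 fatty acid branch genes in each class (x axis), with 1 point per library, the class mean as a bar and the SD as whiskers. Acaca, Fasn, Scd2, Elovl6 and Fads1 lie lowest in all 4 ROS+++ libraries, Scd1 peaks in ROS++, and Elovl1 and Elovl2 run in opposite directions.

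The elongases, which lengthen fatty acids by 2 carbons a cycle, changed in both directions. Elovl6, which extends the palmitate made by fatty acid synthase (ENSMUSG00000041220, chromosome 3, 129532355 to 129638495), held 166, 149, 126, 133 and 166 CPM in the ROS+ libraries, 65.995, 128, 91.3, 72.7 and 96.5 in those of ROS++ and 27.4, 24.5, 4.0003 and 31.2 in those of ROS+++. Each ROS+++ library lay below each of the others, ROS+++ replicate 3 being lowest at 4.00 CPM, and ROS++ overlapped ROS+ in 1 library (replicate 2, 128 CPM). Elovl6 had the largest change of the 35 genes, a fall of 3.00 ± 0.40 (adjusted p = 7.8e-06) from ROS+ to ROS+++, and it fell by 2.27 ± 0.40 (adjusted p = 0.00029) from ROS++. ROS++ minus ROS+ was -0.73 ± 0.38 (adjusted p = 0.17), not called, and was called without ROS+++ replicate 3 (-0.73, adjusted p = 0.0039), with only the 2 classes in the fit (0.0042) and in limma-voom (0.019).

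Elovl2 is the elongase of long polyunsaturated fatty acids (ENSMUSG00000021364, chromosome 13, 41182381 to 41220405). It was the only enzyme of the branch called lower in ROS++ than in ROS+ in the limma test over all 14 libraries. Its libraries held 36.8, 26.1, 53.8, 23.8 and 40.5 CPM in the ROS+ libraries, 12.3, 9.44, 15.6, 10.3 and 4.26 in those of ROS++ and 7.02, 5.05, 4.62 and 8.03 in those of ROS+++. All ROS+ libraries lay above all others, and ROS++ and ROS+++ overlapped. Elovl2 fell by 1.74 ± 0.33 (adjusted p = 0.00056) from ROS+ to ROS++, with a change of -2.34 ± 0.35 (adjusted p = 1.7e-05) between ROS+ and ROS+++. ROS+++ minus ROS++ was -0.60 ± 0.35 (adjusted p = 0.19), and was called without ROS++ replicate 5 (-0.85, adjusted p = 0.040).

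Elovl1, which makes the very long saturated chains of sphingolipids, went the opposite way. It averaged 67.2 ± 12.4, 125 ± 30.3 and 148 ± 19.4 CPM and rose by 0.87 ± 0.17 (adjusted p = 0.00090) to ROS++ and by 1.14 ± 0.18 (adjusted p = 4.3e-05) to ROS+++. Every ROS+ library (52.4 to 78.9 CPM) lay below every library of ROS++ (92.8 to 162 CPM) and ROS+++ (124 to 171 CPM). Elovl7, an elongase of saturated chains, was variable, with 25.1, 15.8, 8.92, 19.5 and 4.74 CPM in the ROS+ libraries, 31.7, 10.8, 40.2, 18.8 and 5.95 in those of ROS++ and 4.87, 2.55, 0.286 and 10.9 in those of ROS+++. Its classes overlapped, and ROS+++ replicate 3 was the lowest library. Elovl7 fell by 1.71 ± 0.63 (adjusted p = 0.025) from ROS+ to ROS+++, with a change of -2.13 ± 0.63 (adjusted p = 0.012) against ROS++. The first call ended without ROS+ replicate 1 or 4 or ROS+++ replicate 2 (-1.48, -1.57 and -1.63, adjusted p = 0.057 to 0.066), and without ROS+++ replicate 3 both ended (-1.14 and -1.56, adjusted p = 0.11 and 0.053). The first call also ended with 3 other scalings (-1.39 to -1.49, adjusted p = 0.055 to 0.073), in limma-voom (0.052) and with sets of neighbouring library numbers as a term (-1.50, adjusted p = 0.065). Elovl5, the polyunsaturated elongase with the highest level per length of the elongases (73.2 CPM per kb in ROS+), averaged 258 ± 27.3, 294 ± 46.2 and 267 ± 64.2 CPM. None of its differences passed with library totals, and relative log expression factors called it higher in ROS+++ than in ROS+ (0.47, adjusted p = 0.022), as TMM factors did (0.40, 0.043).

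The 2 front-end desaturases of polyunsaturated fatty acids diverged. Fads1, the delta-5 desaturase, held 117, 135, 151, 159.6 and 165 CPM in the ROS+ libraries, 163, 108, 126, 119 and 167 in those of ROS++ and 66.2, 49.6, 51.2 and 74.5 in those of ROS+++. The 4 ROS+++ libraries lay below all others, and ROS+ and ROS++ overlapped. Fads1 fell by 1.26 ± 0.17 (adjusted p = 5.2e-06) from ROS+ to ROS+++, with a change of -1.16 ± 0.17 (adjusted p = 3.7e-05) against ROS++. Fads2, the delta-6 desaturase, averaged 15.1 ± 5.82, 25.05 ± 7.81 and 26.999 ± 8.42 CPM and rose by 0.87 ± 0.36 (adjusted p = 0.045) from ROS+ to ROS+++, with overlapping libraries. That call rested on single libraries, and the F-test over the classes did not pass (adjusted p = 0.069). With library sets as a term Fads2 was also called higher in ROS++ than in ROS+ (0.77, adjusted p = 0.034). The call of ROS+++ against ROS+ ended without ROS+ replicate 2 (0.54, adjusted p = 0.12). That call also ended without ROS+++ replicate 2, 3 or 4 (0.71, 0.93 and 0.79, adjusted p = 0.056 to 0.14). Leaving out ROS+ replicate 4, ROS++ replicate 1 or ROS++ replicate 3 ended it too (0.92, 0.87 and 0.87, adjusted p = 0.050 to 0.053).

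Of the 5 regulators, Srebf1 was called higher in both other classes than in ROS+, Scap was called lower in ROS+++ than in ROS++, and the other 3 had no call with library totals. Srebf1, which encodes the SREBP that drives fatty acid genes (ENSMUSG00000020538, chromosome 11, 60199089 to 60222581), held 6.40, 7.49, 10.3, 17.4 and 13.9 CPM in the ROS+ libraries, 24.3, 27.2, 53.5, 41.1 and 29.1 in those of ROS++ and 15.5, 33.5, 19.3 and 36.3 in those of ROS+++. Every ROS++ library lay above every ROS+ library, and ROS+++ overlapped both. Srebf1 rose by 1.60 ± 0.32 (adjusted p = 0.00097) from ROS+ to ROS++ and by 1.17 ± 0.34 (adjusted p = 0.0069) from ROS+ to ROS+++, and ROS+++ minus ROS++ was -0.43 ± 0.34 (adjusted p = 0.33). Both rises were called under each of the 26 alternatives tried. Between ROS+ and ROS+++, Srebf1 thus rose while Fasn, Acaca and Scd2 fell. How much SREBP protein was cleaved and active was not measured.

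Srebf2, which encodes the SREBP of the sterol genes, averaged 23.1 ± 4.17, 26.6 ± 4.54 and 28.8 ± 8.74 CPM, and no difference passed with library totals. With TMM, relative log expression and upper-quartile factors it was called higher in ROS+++ than in ROS+ (0.64, 0.71 and 0.56, adjusted p = 0.025, 0.016 and 0.049). Scap, the SREBP escort, held 12.1, 9.65, 9.95, 18.03 and 14.9 CPM in the ROS+ libraries, 10.1, 29.4, 24.1, 22.998 and 8.62 in those of ROS++ and 10.02, 16.98, 2.10 and 4.09 in those of ROS+++. The classes overlapped, with ROS+++ replicate 3 lowest. Scap fell by 1.28 ± 0.47 (adjusted p = 0.040) from ROS++ to ROS+++. The call ended without ROS++ replicate 2, 3 or 4 (-1.09, -1.16 and -1.18) or ROS+++ replicate 3 or 4 (-0.85 and -1.09, adjusted p = 0.082 to 0.16 over these 5), and with 3 other scalings (-0.92 to -1.03, adjusted p = 0.10 to 0.14), and its F-test over the classes did not pass (adjusted p = 0.070). Scap was called lower in ROS+++ than in ROS+ without ROS+++ replicate 2 (-1.28, adjusted p = 0.027). On the opposite strand, 5830462I19Rik overlaps 13.2% of the Scap exon bases, and the library preparation described keeps no strand.

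Insig1 and Insig2, the retention proteins, averaged 164 ± 17.8, 194 ± 48.9 and 151 ± 18.03 CPM and 84.3 ± 14.2, 86.1 ± 14.8 and 96.6 ± 24.9 CPM. Insig1, itself a classical SREBP target, had the higher level per length in ROS+ (53.1 against 24.3 CPM per kb). No difference of either passed with library totals. Insig1 was called lower in ROS+++ than in ROS++ without ROS++ replicate 2 (-0.43, adjusted p = 0.041). Insig2 was called higher in ROS+++ than in ROS+ with TMM and relative log expression factors (0.55 and 0.61, adjusted p = 0.032 and 0.020).

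**Figure D3:**
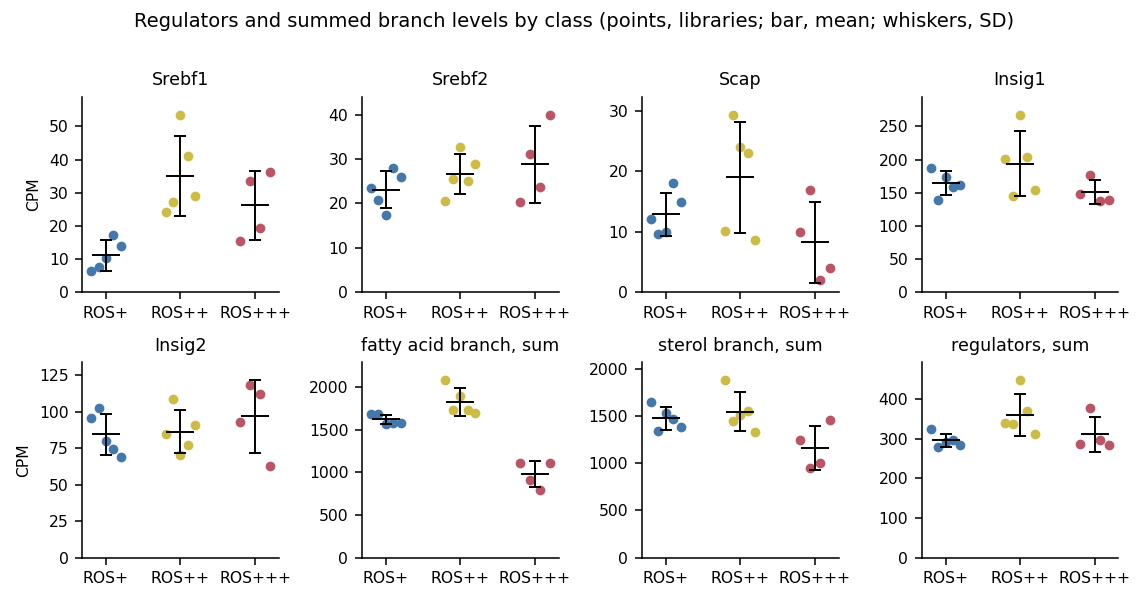
CPM (y axis, from 0) of the 5 regulators and the summed CPM of each group of genes by class (x axis), with 1 point per library, the mean as a bar and the SD as whiskers. Srebf1 is lowest in ROS+, whereas the fatty acid sum is lowest in all 4 ROS+++ libraries (799 to 1115 CPM).

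Calls in the sterol branch were uneven along the pathway. Of its 17 genes, 9 fell and 2 rose between ROS+++ and ROS+ (median -0.64, all genes -0.44). Against ROS++, 6 fell and 0 rose (limma, likewise 0 at an unadjusted p under 0.05, median -0.42, all genes -0.34). Between ROS++ and ROS+, 1 rose and 1 fell (median -0.08, all genes -0.03). In none of the 17 did the libraries of these 2 classes separate, beside 23.0% of all genes tested. Of all genes tested, 40.0% were called lower and 19.2% higher in ROS+++ than in ROS+. The shares lower and higher were 29.2% and 9.89% in ROS+++ against ROS++, and 13.2% and 16.4% in ROS++ against ROS+.

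The genes called lower in ROS+++ under every scaling were Sqle, Lss, Hsd17b7 and Dhcr7, which lie between squalene and cholesterol. Promoter sequence shows what sterol genes share beside their reactions. RefSeq promoters (assembly GRCm38.p6, the 250 bases before a start) were at hand for 28 of the 35 genes. The box CCAAT, the motif of the factor NF-Y that acts beside SREBPs, was searched on both strands, and a gene counted if any of its listed starts had it. It occurred in 13 of 13 sterol genes (100% of them), in 4 of 10 fatty acid genes (40%) and in 4 of 5 regulators (80%), against 40.4% of 10884 genes of the expression table. At least 2 boxes occurred in 8 of the 13 sterol genes (61.5%) and in 14.7% of the table's genes. The core of the sterol regulatory element, CACCCCAC, was in 2 of the 28 (Hmgcs1 and Elovl7, 7.14%) and in 3.38% of the table's genes. The full element, searched with up to 1 mismatch, was in 3 of the 28 (Hmgcs1, Nsdhl and Srebf2, 10.7%) and in 1.89% of the table's genes. The E-box CACGTG was in 6 of the 28 (21.4%) and in 9.69%. These matches are descriptions of the letters in a window, not binding sites. Shown are the upstream runs, without annotated exon bases, of Hmgcs1, which holds the core and 3 boxes, of Hsd17b7 and Lss, which fell most in the sterol branch, of Pmvk, which rose, and of Fasn from the fatty acid branch. Capitals mark CCAAT, CACCCCAC and CACGTG on either strand (ATTGG is CCAAT read on the other strand), and in Fasn 2 boxes on opposite strands overlap.
Hmgcs1 (chr13:119690101-119690350, plus strand): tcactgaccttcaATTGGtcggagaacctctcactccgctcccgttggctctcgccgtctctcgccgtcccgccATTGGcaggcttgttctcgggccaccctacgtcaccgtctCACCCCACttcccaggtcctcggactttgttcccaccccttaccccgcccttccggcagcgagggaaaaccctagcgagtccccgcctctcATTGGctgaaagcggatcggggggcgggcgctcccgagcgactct
Hsd17b7 (chr1:169969242-169969455, minus strand): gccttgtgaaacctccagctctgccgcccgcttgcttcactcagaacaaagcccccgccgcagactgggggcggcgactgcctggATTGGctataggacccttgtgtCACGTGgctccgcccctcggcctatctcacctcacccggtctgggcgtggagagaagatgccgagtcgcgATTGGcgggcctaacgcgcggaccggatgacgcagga
Lss (chr10:76531355-76531587, plus strand): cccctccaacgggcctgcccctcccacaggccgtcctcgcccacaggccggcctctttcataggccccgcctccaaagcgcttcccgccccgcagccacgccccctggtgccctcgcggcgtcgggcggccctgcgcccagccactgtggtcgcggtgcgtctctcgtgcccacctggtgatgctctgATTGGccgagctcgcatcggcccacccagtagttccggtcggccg
Pmvk (chr3:89454291-89454540, plus strand): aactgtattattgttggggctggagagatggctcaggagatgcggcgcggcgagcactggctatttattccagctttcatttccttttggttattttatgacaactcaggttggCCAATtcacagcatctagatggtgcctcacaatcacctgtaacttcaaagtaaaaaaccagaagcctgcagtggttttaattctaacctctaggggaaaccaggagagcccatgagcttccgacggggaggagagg
Fasn (chr11:120824548-120824797, minus strand): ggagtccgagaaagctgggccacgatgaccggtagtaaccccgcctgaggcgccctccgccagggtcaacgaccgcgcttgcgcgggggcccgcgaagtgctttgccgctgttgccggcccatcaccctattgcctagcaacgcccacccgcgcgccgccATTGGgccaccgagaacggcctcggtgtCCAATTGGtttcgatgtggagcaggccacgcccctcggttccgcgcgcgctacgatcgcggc

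Few calls fell among the early steps of the mevalonate pathway. Hmgcs1, the synthase that makes HMG-CoA, averaged 311 ± 42.4, 358 ± 96.95 and 232 ± 53.1 CPM and fell by 0.44 ± 0.18 (adjusted p = 0.049) from ROS+ to ROS+++, with a change of -0.61 ± 0.18 (adjusted p = 0.014) against ROS++. The call against ROS+ was fragile. It ended without ROS+ replicate 1, 3, 4 or 5, ROS++ replicate 2, 3 or 4, or ROS+++ replicate 2 or 3 (-0.33 to -0.47, adjusted p = 0.053 to 0.17). With relative log expression factors the difference was 0.01 (adjusted p = 0.98), and with library sets as a term -0.34 (adjusted p = 0.11). The call against ROS++ ended without ROS+++ replicate 2 (-0.50, adjusted p = 0.056) and with TMM, relative log expression and upper-quartile factors (-0.27, -0.19 and -0.33, adjusted p = 0.19 to 0.46). Gm48342 overlaps 12.1% of the Hmgcs1 exon bases on the opposite strand.

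Mvk and Pmvk, the kinases that phosphorylate mevalonate and its phosphate, averaged 21.4 ± 7.38, 28.2 ± 9.69 and 18.01 ± 8.90 CPM and 119.6 ± 12.96, 141 ± 20.1 and 152 ± 8.97 CPM. No difference of Mvk passed, apart from ROS+++ minus ROS++ without ROS+++ replicate 2 (-0.94, adjusted p = 0.048). Pmvk rose by 0.35 ± 0.13 (adjusted p = 0.025) from ROS+ to ROS+++, and the 4 ROS+++ libraries (139 to 159 CPM) lay above the 5 ROS+ libraries (105 to 138 CPM). Its call ended without ROS+ replicate 3 or 4 or ROS+++ replicate 1, 3 or 4 (0.30 to 0.34, adjusted p = 0.052 to 0.065), and its F-test over the classes did not pass (adjusted p = 0.059). Mvd, the decarboxylase, held 24.3, 23.1, 21.05, 43.1 and 26.6 CPM in the ROS+ libraries, 6.18, 20.1, 29.4, 19.8 and 12.6 in those of ROS++ and 6.49, 10.2, 7.33 and 30.9 in those of ROS+++. ROS+++ replicate 4 lay within the ROS+ range, and the other 3 ROS+++ libraries lay below it. Mvd fell by 1.18 ± 0.44 (adjusted p = 0.028) from ROS+ to ROS+++, which was no longer called when ROS+ replicate 4 (-1.01) or ROS+++ replicate 1, 2 or 3 (-0.94, -1.14 and -0.996) was left out (adjusted p = 0.059 to 0.091) or with 3 other scalings (-0.77 to -0.91, adjusted p = 0.082 to 0.13). Its F-test over the classes did not pass (adjusted p = 0.067). Idi1, the isomerase, averaged 17.1 ± 3.77, 17.8 ± 2.002 and 15.998 ± 3.67 CPM with no difference called. Fdps, the farnesyl diphosphate synthase, averaged 9.26 ± 1.78, 7.26 ± 1.48 and 5.58 ± 1.06 CPM. It was below every ROS+ library in each ROS+++ library but missed the threshold (-0.64 ± 0.30, adjusted p = 0.074). Since 86.4% of the 50-base stretches of Fdps and 30.5% of those of Idi1 also occur in other annotated genes, both levels are uncertain.

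The enzymes of squalene and lanosterol were lowest in ROS+++. Fdft1, the squalene synthase, held 138, 130.0, 145, 121 and 123 CPM in the ROS+ libraries, 130.3, 127, 135, 133 and 105 in those of ROS++ and 116, 68.1, 50.4 and 121 in those of ROS+++. The ROS+++ libraries were split, with replicates 2 and 3 below all others and replicates 1 and 4 near them. Fdft1 fell by 0.65 ± 0.20 (adjusted p = 0.011) from ROS+ to ROS+++, with a change of -0.58 ± 0.20 (adjusted p = 0.031) against ROS++. Without ROS+++ replicate 3 neither call held (-0.41 and -0.34, adjusted p = 0.056 and 0.14). The call against ROS++ also ended without ROS+++ replicate 2 (-0.49, 0.099) and without ROS++ replicate 2, 3 or 4 (-0.58, -0.55 and -0.56, adjusted p = 0.052 to 0.060). Both calls ended with TMM, relative log expression and upper-quartile factors, with changes of -0.27, -0.21 and -0.35 against ROS+ (adjusted p = 0.15 to 0.39) and -0.25, -0.17 and -0.30 against ROS++ (adjusted p = 0.27 to 0.54). Ctsb overlaps 18.3% of the Fdft1 exon bases on the opposite strand.

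Sqle, the squalene epoxidase and a flux-controlling step of the pathway (ENSMUSG00000022351, chromosome 15, 59315077 to 59331192), held 132, 91.7, 151, 139 and 128 CPM in the ROS+ libraries, 134, 92.8, 138, 116 and 125 in those of ROS++ and 35.3, 50.99, 42.6 and 72.1 in those of ROS+++. All 4 ROS+++ libraries lay below all others, while ROS+ and ROS++ covered one range. Sqle fell by 1.37 ± 0.20 (adjusted p = 1.2e-05) from ROS+ to ROS+++, with a change of -1.29 ± 0.20 (adjusted p = 5.7e-05) against ROS++. Lss, which closes the ring to lanosterol (ENSMUSG00000033105, chromosome 10, 76531588 to 76557138), held 33.6, 25.7, 30.7, 25.5 and 37.2 CPM in the ROS+ libraries, 23.5, 27.9, 36.9, 17.5 and 28.2 in those of ROS++ and 9.83, 11.04, 6.38 and 6.06 in those of ROS+++. Here too every ROS+++ library was below every other library. Lss fell by 1.78 ± 0.27 (adjusted p = 1.8e-05) from ROS+ to ROS+++, with a change of -1.58 ± 0.27 (adjusted p = 0.00016) against ROS++, the largest falls of the sterol branch.

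After lanosterol the genes went both ways. Cyp51, the lanosterol demethylase, held 141, 81.7, 172, 119 and 138 CPM in the ROS+ libraries, 110.1, 91.3, 93.6, 117 and 80.1 in those of ROS++ and 57.7, 73.7, 85.7 and 96.03 in those of ROS+++. The ranges of ROS+ and ROS+++ overlapped through ROS+ replicate 2. Cyp51 fell by 0.71 ± 0.20 (adjusted p = 0.0051) from ROS+ to ROS+++, a call that ended with 3 other scalings, and ROS++ minus ROS+ was called without ROS+ replicate 2 (-0.53, adjusted p = 0.029). Msmo1, the methylsterol monooxygenase that acts on the product that follows, rose instead (ENSMUSG00000031604, chromosome 8, 64718139 to 64733792). It held 186, 157, 142, 142 and 115 CPM in the ROS+ libraries, 328, 243, 224, 263 and 174 in those of ROS++ and 309, 171, 215 and 316 in those of ROS+++. ROS++ and ROS+++ covered the same range, and ROS+ overlapped the lowest library of each. Msmo1 rose by 0.72 ± 0.19 (adjusted p = 0.0070) from ROS+ to ROS++ and by 0.74 ± 0.20 (adjusted p = 0.0039) to ROS+++, and both rises were called under all 26 alternatives. Nsdhl, its partner in removing the same methyl groups, averaged 63.6 ± 7.35, 73.6 ± 21.7 and 72.9 ± 24.1 CPM with no difference called at library totals. Relative log expression factors called it higher in ROS+++ than in ROS+ (0.58, adjusted p = 0.047).

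Hsd17b7, the ketoreductase of the same demethylation complex (ENSMUSG00000026675, chromosome 1, 169949535 to 169969241), held 54.8, 48.96, 37.1, 31.2 and 31.2 CPM in the ROS+ libraries, 60.2, 33.2, 34.5, 21.1 and 32.4 in those of ROS++ and 10.3, 13.6, 14.8 and 12.9 in those of ROS+++. Its 4 ROS+++ libraries lay below all others. Hsd17b7 fell by 1.56 ± 0.27 (adjusted p = 0.00010) from ROS+ to ROS+++, with a change of -1.36 ± 0.27 (adjusted p = 0.00076) against ROS++. Of the 3 enzymes of this complex, Msmo1 rose, Nsdhl was not called and Hsd17b7 fell between ROS+ and ROS+++.

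Dhcr7, which reduces the last double bond to give cholesterol (ENSMUSG00000058454, chromosome 7, 143823145 to 143848410), held 158, 152, 125, 147 and 129 CPM in the ROS+ libraries, 109.7, 116, 76.6, 71.2 and 131 in those of ROS++ and 52.6, 36.5, 42.5 and 66.8 in those of ROS+++. Its class means descended from ROS+ to ROS+++, and the ROS+++ libraries did not overlap the others, while ROS+ and ROS++ overlapped. Dhcr7 fell by 1.53 ± 0.20 (adjusted p = 3.7e-06) from ROS+ to ROS+++, with a change of -1.01 ± 0.20 (adjusted p = 0.00063) against ROS++. It was the only sterol gene called lower in ROS++ than in ROS+ (-0.52 ± 0.19, adjusted p = 0.043). That call ended without any 1 of the 5 ROS+ libraries or ROS++ replicate 3 or 4 (-0.41 to -0.57, adjusted p = 0.052 to 0.12), and with 3 other scalings (0.053 to 0.066). Sc5d, the desaturase before it, averaged 139 ± 19.3, 127 ± 19.5 and 100.2 ± 23.3 CPM and fell by 0.49 ± 0.17 (adjusted p = 0.018) from ROS+ to ROS+++, a call lost without ROS+++ replicate 2 (-0.37, adjusted p = 0.076) and with 3 other scalings (-0.05 to -0.19, adjusted p = 0.36 to 0.84). ROS+++ minus ROS++ passed for Sc5d without ROS++ replicate 3 or ROS+++ replicate 4 (-0.44 and -0.49, adjusted p = 0.048 and 0.026). Tm7sf2, a reductase that acts before the methyl groups are removed, averaged 11.96 ± 3.39, 11.4 ± 7.73 and 7.40 ± 4.16 CPM, and Stard4, a cytosolic carrier of cholesterol, 6.12 ± 1.62, 9.91 ± 4.52 and 7.92 ± 5.26 CPM. No difference of either passed. Tm7sf2 ranged from 0.21 to 19.9 CPM within ROS++ and shares 12.1% of its exon bases with Vps51.

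**Figure D4:**
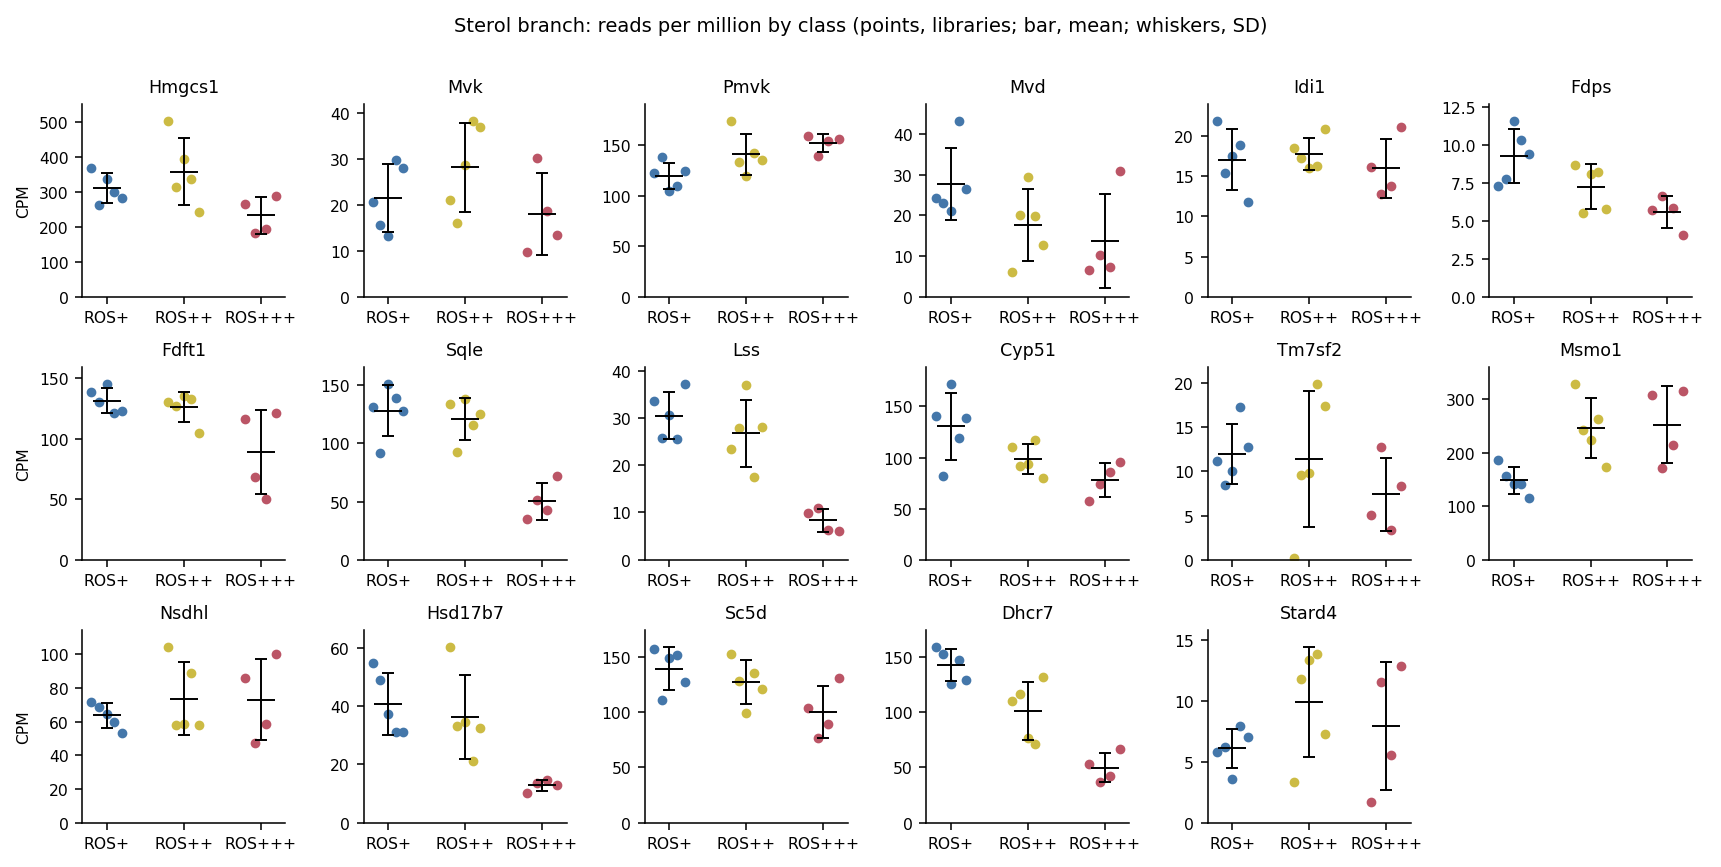
CPM (y axis, from 0) of the 17 sterol branch genes in each class (x axis), with 1 point per library, the class mean as a bar and the SD as whiskers. Sqle, Lss, Hsd17b7 and Dhcr7 are lowest in all 4 ROS+++ libraries, while Msmo1 and Pmvk have their lowest class mean in ROS+.

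Summed over genes, the fatty acid branch took 1621 ± 57.7, 1828 ± 163 and 984 ± 155 CPM in ROS+, ROS++ and ROS+++ (mean ± SD, n = 5, 5 and 4). Its range in ROS+++ (799 to 1115 CPM) lay below that of ROS+ (1573 to 1684 CPM) and ROS++ (1695 to 2083 CPM). Scd2 alone made up 36.4% of the sum in ROS+ and 44.5% in ROS++, and in ROS+++ the largest share was that of Elovl5, 27.2%. The sterol branch summed to 1478 ± 123, 1548 ± 207 and 1167 ± 233 CPM, and the ROS+++ libraries (953 to 1458 CPM) overlapped both other classes. Hmgcs1 held the largest share of the sterol sum in ROS+ (21.01%) and ROS++ (23.1%), and Msmo1 in ROS+++ (21.7%). The regulators summed to 296 ± 17.3, 361 ± 52.9 and 311 ± 44.5 CPM. These sums are descriptions with no test.

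Counts of lower genes in ROS+++ depended on how libraries were scaled. Library totals were used above. TMM, relative log expression and upper-quartile factors shifted the all-gene median of ROS+++ minus ROS+ up by 0.34, 0.40 and 0.27, and the share of higher genes among all calls from 32.5% to 48.0%, 50.7% and 43.9%. Under each of these 3, 6 of the 13 fatty acid genes and 4 of the 17 sterol genes were lower in ROS+++ than in ROS+, in place of 8 and 9. Among all genes tested, 27.4%, 25.9% and 30.1% were lower with these factors, in place of 40.0%. The sterol share, 23.5%, was below each of these, the share of all 35 genes, 28.6%, was near them, and the fatty acid share, 46.2%, was above. These differences in share were not tested. The calls lost under all 3 were those of Acly, Elovl7, Hmgcs1, Mvd, Fdft1, Cyp51 and Sc5d, and against ROS++ those of Scd1, Scap, Hmgcs1 and Fdft1. Elovl1 and Pmvk were called higher in ROS+++ than in ROS++ under all 3, and Insig2 with relative log expression factors (0.55, adjusted p = 0.046). Among the 35 genes, calls that were higher made up 22.7% with library totals and 44.4%, 47.4% and 37.5% with the 3 factors. Called lower under all 4 scalings were Acaca, Fasn, Scd2, Elovl2, Elovl6, Fads1, Sqle, Lss, Hsd17b7 and Dhcr7, and called higher under all 4 were Elovl1, Fads2, Srebf1, Pmvk and Msmo1. Relative to the median of all genes, 8 fatty acid genes lay below it and 5 above, and 10 sterol genes lay below and 7 above.

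**Figure D5:**
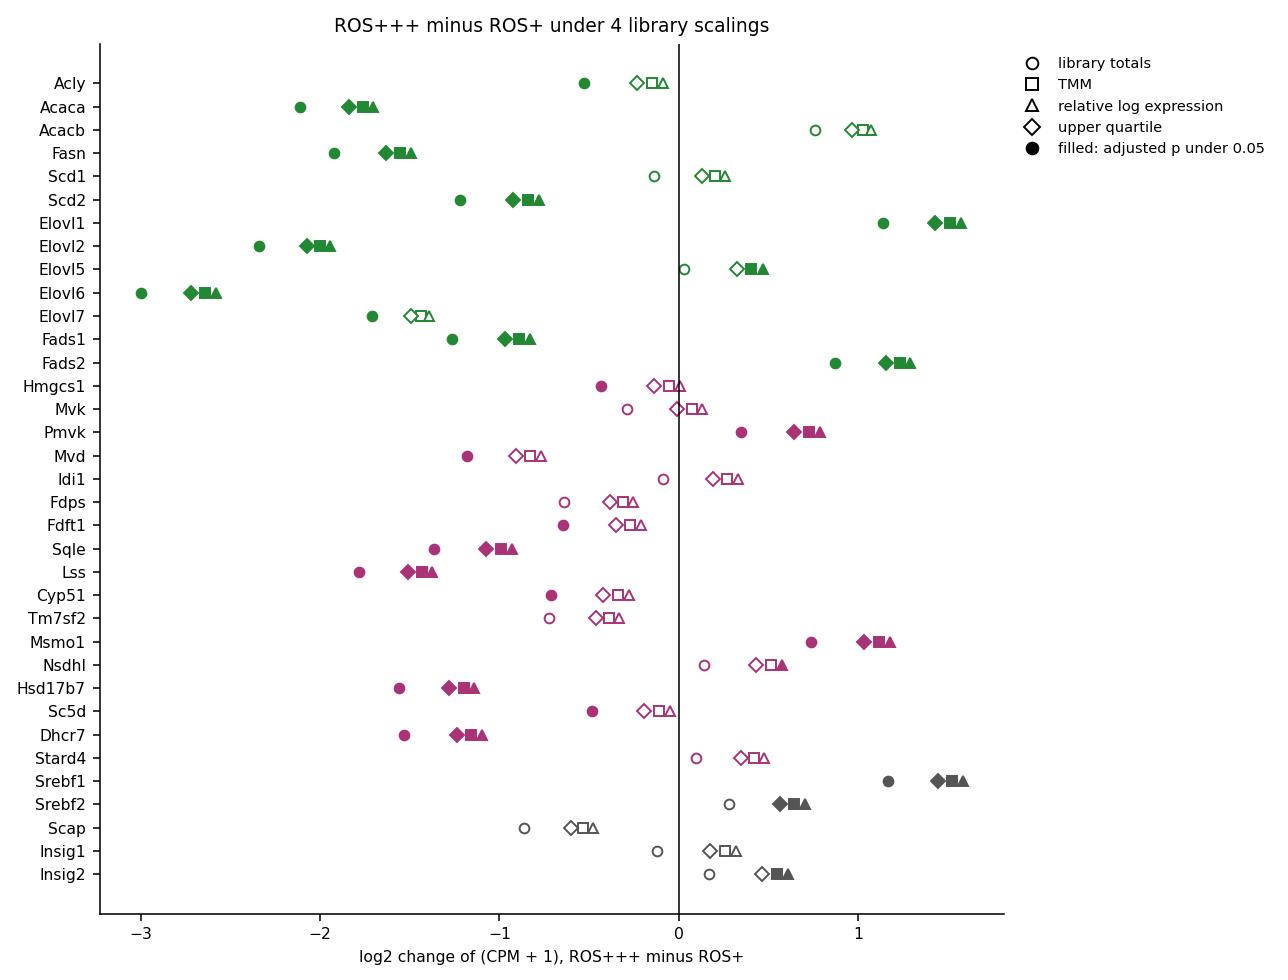
Log2 change of each of the 35 genes in ROS+++ minus ROS+ (x axis) under 4 library scalings (marker shapes), filled where the limma adjusted p was under 0.05. The 3 alternative factors shift every gene to the right, Elovl6 stays the lowest, and Hmgcs1 moves from -0.44 (library totals) to 0.01 (relative log expression).

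Other genes of these pathways were examined from lists chosen by function. In reading their counts, of all genes tested 40.0% were lower and 19.2% higher in ROS+++ than in ROS+ (median -0.44). The further fatty acid and sterol lists lay near those shares in that comparison. Between ROS+++ and ROS++, 29.2% of all genes were lower and 9.89% higher, and between ROS++ and ROS+ 13.2% were lower and 16.4% higher. Among 18 further fatty acid synthesis genes measured, 8 fell and 3 rose between ROS+++ and ROS+ (median -0.67), 9 fell and 1 rose between ROS+++ and ROS++, and 3 fell and 3 rose between ROS++ and ROS+. Elovl4, the elongase of very long polyunsaturated chains, fell by 4.30 ± 0.33 from ROS+ to ROS+++, from 121 ± 21.9 to 5.86 ± 3.27 CPM. Fads3, a desaturase related to Fads1 and Fads2, rose by 2.91 ± 0.40, and Thrsp, an activator of lipogenesis that is also in the radial glia-like marker list, rose by 2.86 ± 0.28 from ROS+ to ROS++ (693 ± 148 CPM). Among 8 further sterol synthesis genes, 4 fell and 1 rose between ROS+++ and ROS+ (median -0.43), 3 fell between ROS+++ and ROS++, and between ROS++ and ROS+ 0 passed the adjusted limma test (1 higher and 1 lower at an unadjusted p under 0.05, and 0 in limma-voom). Acat2, the cytosolic thiolase that feeds the mevalonate pathway, fell by 2.21 ± 0.22 from ROS+ to ROS+++, and Erg28, a scaffold of the demethylation complex, by 0.94 ± 0.17. Glycerolipid synthesis, which turns fatty acids into triglycerides and phospholipids, had 7 of 10 genes lower and 1 higher in ROS+++ than in ROS+ (median -0.81), with Dgat2 (-2.48 ± 0.67), Gpat3 (-1.53 ± 0.62) and Gpat4 (-1.42 ± 0.22) showing the largest changes. Of 9 genes of SREBP processing and sterol sensing, 2 fell and 0 rose in that comparison by limma (0 higher also at an unadjusted p under 0.05 and in limma-voom). They were Mbtps2, the protease that makes the second cut in SREBPs (-1.44 ± 0.27), and the SCAP-binding Golgi protein gene Paqr3 (-2.05 ± 0.36).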

How the data were processed

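The table that the authors deposited gives log2 values of 15119 genes in 14 libraries. Per the submitters' processing notes, STAR, edgeR and build mm10 were used; roles and versions were not given in the sources used here. Per the labels' protocols, cDNA was primed with poly-dT and amplified over 12 cycles, with no strand mark or molecular identifiers described. The deposited log2 values are logarithms of library-scaled reads plus a prior, judged from the numbers, since all share the lowest value of -4.36 and are whole reads within 0.001 reads in 100% of cases. The reads were recovered and scaled to library totals as CPM. No repeated library was found (chi-square per degree of freedom 34.0 to 162 over 26 replicate pairs), and a count of 0 allows up to 3 reads, counting error only.

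Values of log2(CPM + 1) of the 15102 genes with at least 1 CPM in at least 4 libraries were fitted in limma 3.58.1 (statmod 1.5.0, R 4.3.3), with a mean per class over all 14 libraries, a mean-variance trend and robust moderation, and Benjamini-Hochberg adjustment over all genes. All 35 members passed the filter. The script was tested on simulated data. The 35 genes, the further pathway lists and the marker lists were chosen with earlier results of these data known. Values in every library are printed for called genes, up to 8 per branch by largest change, with paralogs and up to 3 called genes of each further list besides. Genes, exon lengths and overlaps come from GENCODE mouse M21 and promoters from RefSeq (GRCm38.p6). Alternatives were other scalings, pseudocounts, filters, limma-voom, non-robust moderation, 2-class fits, sets of neighbouring library numbers as a term, and leaving out each library.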

Additional observations from a re-analysis of the deposited data

Results flagged for a closer look

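Single libraries stood apart from the rest of their class in 6 of 114 groups of libraries examined, by the gap to the nearest other library over the range of the class. Chance flags about 1 in 20 such groups. Fasn was at 125 CPM in ROS++ replicate 3, above the 67.6 to 80.9 CPM of the other 4. Fads2 was at 4.9 CPM in ROS+ replicate 2, below 16.1 to 19.3 CPM, and the rise of Fads2 in ROS+++ was not called without that library. Mvd was at 43.1 CPM in ROS+ replicate 4, above 21.05 to 26.6 CPM, and at 30.9 CPM in ROS+++ replicate 4, above 6.49 to 10.2 CPM. Fdft1 was at 105 CPM in ROS++ replicate 5, below 127 to 135 CPM. The 5 regulators summed to 377 CPM in ROS+++ replicate 2, above 283 to 295 CPM in the other 3.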

How the results depend on the processing

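Of 43 calls of the 35 genes over the 3 comparisons, 27 kept their call and direction under all 26 alternatives, namely 5 of 7 between ROS++ and ROS+, 13 of 22 between ROS+++ and ROS+ and 9 of 14 between ROS+++ and ROS++. With TMM, relative log expression and upper-quartile factors, sterol genes called lower in ROS+++ than in ROS+ went from 9 to 4, those called lower in ROS++ than in ROS+ from 1 to 0, and both branches had 1 gene called higher in ROS+++ than in ROS++ in place of 0. The share of all genes lower in ROS+++ than in ROS+ went from 40.0% to 27.4%, 25.9% and 30.1%. Hmgcs1 in ROS+++ minus ROS+ turned from -0.44 to 0.00515 with relative log expression factors. Fatty acid genes lower in ROS++ than in ROS+ went from 1 to 2 in limma-voom and with only the 2 classes in the fit. Those higher in ROS+++ than in ROS+ went from 2 to 1 in these 2 fits and with the log2 values as deposited. Leaving out 1 library at a time gave 1 to 2 fatty acid genes lower in ROS++ than in ROS+, 0 to 1 sterol genes lower there, and 1 to 2 fatty acid and 1 to 2 sterol genes higher in ROS+++ than in ROS+. No pairing by replicate number was made, since the labels give none. Sets of neighbouring library numbers, which the labels do not call a batch or an animal, were fitted as a term. That fit ended the calls of Elovl7 (-1.50, adjusted p = 0.065) and Hmgcs1 (-0.34, adjusted p = 0.11) in ROS+++ minus ROS+, added that of Fads2 in ROS++ minus ROS+ (0.77, adjusted p = 0.034) and changed no other call. The cause of these shifts was not tested.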

Other observations

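Genes of cholesterol export, uptake and disposal, which take no part in synthesis, changed in both directions between the classes. Among 9 genes of the liver X receptors (LXRs, nuclear receptors activated by oxysterols) and of sterol export, 4 rose and 3 fell between ROS+++ and ROS+ (median 0.68, beside -0.44 over all genes, of which 19.2% rose and 40.0% fell). Between ROS+++ and ROS++, 2 of the 9 rose and 3 fell, beside 9.89% and 29.2% of all genes. Nr1h3, which encodes LXR alpha, averaged 5.27 ± 1.55, 63.1 ± 38.7 and 266 ± 35.2 CPM in ROS+, ROS++ and ROS+++, and it rose by 5.44 ± 0.39 from ROS+ to ROS+++. Mylip, an LXR target that marks lipoprotein receptors for degradation, rose by 5.23 ± 0.41, and Apoe, the lipoprotein of astrocytes and macrophages, by 2.71 ± 0.27 from ROS+ to ROS++. Sterol exporter genes of the same list, among them the LXR targets Abca1 and Abcg1, fell from ROS+ to ROS+++, with Abca1 (-1.65 ± 0.25, adjusted p = 2.4e-05), Abcg1 (-2.15 ± 0.21, adjusted p = 1.4e-07) and Abcg4 (-2.30 ± 0.34, adjusted p = 1.8e-05) named after their values were seen.

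Among 10 genes of sterol uptake and trafficking, 3 rose and 3 fell between ROS+++ and ROS+ (median -0.14), beside 19.2% and 40.0% of all genes. The largest falls were in Vldlr, a lipoprotein and reelin receptor (-3.25 ± 0.56, from 49.7 ± 16.0 to 6.69 ± 7.30 CPM), and in Npc1, the lysosomal cholesterol exporter (-1.38 ± 0.18). Of 6 genes of sterol disposal, 1 rose and 1 fell in the same comparison. Nceh1, a cholesteryl ester hydrolase, fell by 2.21 ± 0.25, and Cyp27a1, the sterol 27-hydroxylase, rose by 1.93 ± 0.61. Soat1, which esterifies cholesterol, was highest in ROS++ (137 ± 11.7 CPM) and rose by 0.98 ± 0.21 from ROS+ to ROS++. Across ROS+, ROS++ and ROS+++, summed macrophage markers stood at 7.70, 1779 and 2046 CPM and mural markers at 404, 10376 and 56967 CPM, and their part in these levels was not tested.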
